A study of Equus caballus with 4 samples.

Results

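The troponin complex was examined in ESC, that is, equine satellite cells, which are the resident stem cells of muscle and fuse into myotubes. They were isolated from m. semitendinosus and kept until day 3 of differentiation. The HMB-treated group received 50 µM β-hydroxy-β-methylbutyrate (HMB), a metabolite of leucine, for 24 h, with 3 mM H2O2 added during the last 1 h. The control cells received H2O2 without HMB, so both groups carried the oxidative stress and the comparison was that of HMB. On each of 4 arrays the RNA of HMB-treated cells was labeled with Cy5 and that of control cells with Cy3. The dyes were not swapped, hence dye and treatment cannot be told apart. The labels number the HMB-treated samples 1 to 4, whereas the control of all 4 arrays carries 1 and the same number. A single control RNA would leave the control spread out of the errors, and the p-values measure only the spread between these 4 ratios. The methods state that 1 culture was chosen by its viability and fusion scores, and the labels do not tie the 4 samples to separate horses, so the ratios may be replicates of a single culture.

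The members were the 8 genes that encode the subunits of troponin in striated muscle: *TNNC1*, *TNNC2*, *TNNI1*, *TNNI2*, *TNNI3*, *TNNT1*, *TNNT2* and *TNNT3*. Probes were chosen by the gene name that the scanner files give, which found 5 probes, 1 for each of *TNNC1*, *TNNC2*, *TNNI2*, *TNNI3* and *TNNT3*. For *TNNI1*, *TNNT1* and *TNNT2* the gene name field held only a transcript identifier, whereas the description field of the same files named the troponin. It gave 11 further probes, 1 for *TNNI1*, 5 for *TNNT1* and 5 for *TNNT2*. This made 16 probes for 8 genes, of 43603 probes and 15270 gene symbols on the array. The 5 probes found by gene name and the 11 found by description are kept apart where a count is given.

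Troponin is the calcium switch of the thin filament. Troponin C binds calcium that is released from the sarcoplasmic reticulum, troponin I holds back the interaction of actin and myosin until calcium is bound, and troponin T anchors the complex to tropomyosin. Each subunit has isoforms made by separate genes. *TNNC1* encodes troponin C of slow and cardiac muscle and *TNNC2* that of fast muscle. *TNNI1*, *TNNI2* and *TNNI3* encode the slow, the fast and the cardiac troponin I, and *TNNT1*, *TNNT3* and *TNNT2* the slow, the fast and the cardiac troponin T. Young skeletal myotubes are known to express slow and cardiac isoforms, cardiac troponin T among them, before a fiber type is set.

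The probes are printed because closely related isoforms can only be told apart by the bases at which the probes differ. Each has 60 bases and is written 5′ to 3′ for the probe of the gene that was used below. In the lines of *TNNI1* and *TNNI3*, capitals mark the bases at which these probes differ from each other, and in those of *TNNT1* and *TNNT3* likewise. The other lines have no capitals.
TNNC1: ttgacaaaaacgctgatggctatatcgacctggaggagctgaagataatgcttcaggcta
TNNC2: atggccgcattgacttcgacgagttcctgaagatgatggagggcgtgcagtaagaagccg
TNNI1: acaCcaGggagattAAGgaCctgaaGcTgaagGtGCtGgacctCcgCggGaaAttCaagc
TNNI2: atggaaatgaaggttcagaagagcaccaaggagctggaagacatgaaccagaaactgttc
TNNI3: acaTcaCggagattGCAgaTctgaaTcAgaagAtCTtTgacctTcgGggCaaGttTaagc
TNNT1: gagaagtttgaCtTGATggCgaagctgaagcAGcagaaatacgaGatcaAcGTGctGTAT
TNNT2: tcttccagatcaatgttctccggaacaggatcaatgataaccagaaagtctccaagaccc
TNNT3: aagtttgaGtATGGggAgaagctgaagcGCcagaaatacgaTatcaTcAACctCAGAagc

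The files place these probes on EquCab1 at chr16:35287316-35287624 on the plus strand (*TNNC1*), chr22:34842361-34842734 on the minus strand (*TNNC2*), chr30:18646529-18647672 on the minus strand (*TNNI1*), chrUn:277498650-277498815 on the minus strand (*TNNI2*), chr10:19144347-19144953 on the minus strand (*TNNI3*), chr10:19130413-19130593 on the minus strand (*TNNT1*), chr30:18601044-18601342 on the minus strand (*TNNT2*) and chrUn:277450440-277452351 on the minus strand (*TNNT3*). The transcripts named by the files were ENSECAT00000021693 for *TNNC1*, ENSECAT00000021003 for *TNNC2*, ENSECAT00000017878 for *TNNI1*, ENSECAT00000016196 for *TNNI2*, NM_001081904 for *TNNI3*, ENSECAT00000016548 for *TNNT1*, ENSECAT00000023829 for *TNNT2* and ENSECAT00000025982 for *TNNT3*. All 16 troponin probes had coordinates longer than the probe itself, as a probe that joins neighboring exons of an mRNA has. Among the tested probes with coordinates, 14.5% had such a span. The files do not number the exons.

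The probes of *TNNI1* and *TNNI3* read the same stretch of the mRNA and agreed at 43 of 60 bases (71.7%), with at most 7 identical bases in a row. The probes of *TNNT1* and *TNNT3* agreed at 40 of 57 overlapping bases (70.2%), and their longest identical run was 11 bases. Those of *TNNC1* and *TNNC2* agreed at 26 of 45 overlapping bases (57.8%). No 2 troponin genes had probes that shared 20 bases in a row. The 5 probes of *TNNT1* were shifted by 1 base from one to the next and shared 56 bases, as were the 5 of *TNNT2*, hence they are repeated readings of 1 site and not independent measurements. Whether the RNA of a paralog bound to a probe at the differing bases was not tested.

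Between 55.2% and 61.8% of the probes were well above background in a channel of an array, 0 spots were saturated, and the log2 ratios of the 4 arrays correlated at 0.837 to 0.92 over the tested probes. A probe was tested where either channel was well above background on every array, which held for 24669 probes. All 16 troponin probes passed this filter, and all were well above background in both channels on 4 of 4 arrays. In what follows, a log2 ratio is the deposited normalized ratio of HMB-treated over control on a log2 scale, so that negative values stand for less RNA with HMB. A gene was called with limma's adjusted p of 0.05 or less and a fold change (FC) of 1.3 or more.

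The 5 probes found by gene name were all called lower in the HMB-treated group, and so were the 11 found by description. Of all tested probes, 28.6% were called, 16.4% as lower and 12.1% as higher. With 1 probe for each gene, 32 of 32 ratios were below 0. The mean log2 ratio was between -1.25 for *TNNC2* and -0.42 for *TNNI2*, with a median of -0.70 over the 5 genes and of -0.58 over the 8 genes. The median over all tested probes was -0.07. Less RNA per cell and fewer cells that express troponin cannot be told apart in such RNA of whole cultures.

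**Figure D1:**
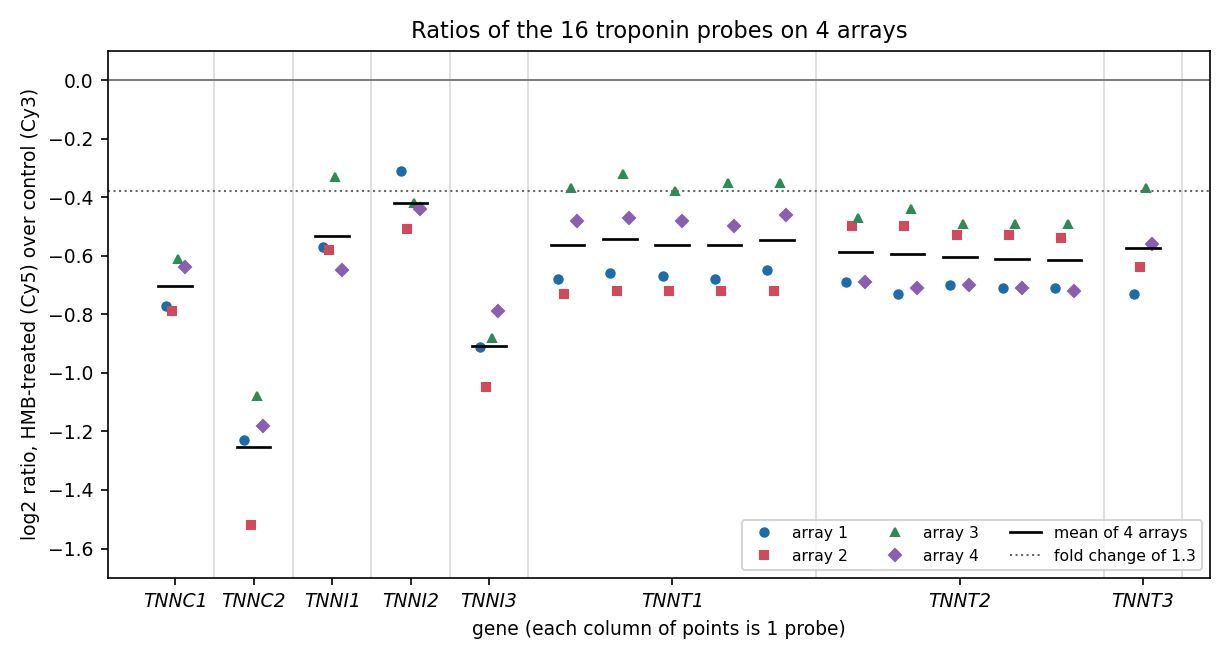
The log2 ratio of HMB-treated over control (vertical axis) is plotted for each of the 16 troponin probes, grouped by gene along the horizontal axis, with a point for each of the 4 arrays, a bar for their mean and a dotted line at an FC of 1.3. All points lie below 0, TNNC2 lies lowest on every array with TNNI3 next, and the 5 probes of TNNT1 and of TNNT2 repeat each other.

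Troponin C of fast muscle showed the largest fall of the complex. The signal of *TNNC2* in control was 8785, 8852, 10632 and 8398.0 on arrays 1 to 4, and that in HMB-treated cells was 3758, 3097, 5014 and 3716. The lowest control signal was above the highest signal with HMB. Its log2 ratios were -1.23, -1.52, -1.08 and -1.18, and the mean of -1.25 ± 0.19 (SD, n = 4) left 42% of the control level (FC 2.38, limma's adjusted p = 0.00013). This put *TNNC2* at percentile 1 of all tested probes, counted from the largest fall.

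Slow and cardiac troponin C fell less. The signal of *TNNC1* lay between 27804 and 36738 in control and between 16122 and 24009.5 with HMB, without overlap. Its log2 ratios were -0.77, -0.79, -0.61 and -0.64, with a mean of -0.70 ± 0.09 (SD, n = 4), or 61.4% of control (adjusted p = 0.000411). The difference between *TNNC1* and *TNNC2* had the same sign on all 4 arrays, at 0.46, 0.73, 0.47 and 0.54 on the log2 scale, with a mean of 0.55 ± 0.13. The exact two-sided sign-flip test gave p = 0.125, which is the smallest that this test allows on 4 arrays, so it could not reach 0.05 for any difference between isoforms. Over the 7 pairs of isoforms compared, the lowest adjusted p was 0.292.

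Among the inhibitory subunits, the cardiac isoform *TNNI3* fell the most and had the dimmest signals of the complex. Its control signals were 126.0, 132, 178 and 136 and those with HMB were 67.2, 64.0, 96.9 and 78.5, all well above background and without overlap between the groups. The log2 ratios of -0.91, -1.05, -0.88 and -0.79 had a mean of -0.91 ± 0.11 (SD, n = 4), or 53.4% of control (adjusted p = 0.000184). The size of the fall depended on the processing. With normexp, a model-based background correction, and a new loess normalization the mean was -0.34 and the gene was no longer called, and with loess and no background correction it was -0.44 and still called.

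The slow isoform *TNNI1* gave log2 ratios of -0.57, -0.58, -0.33 and -0.65, with a mean of -0.53 ± 0.14 (SD, n = 4; adjusted p = 0.00212) and 69.2% of control. Its signals were 4774 to 5962 in control and 3039 to 4731 with HMB. The fast isoform *TNNI2* had the smallest change of the complex. Its log2 ratios were -0.31, -0.51, -0.42 and -0.44, with a mean of -0.42 ± 0.08 (SD, n = 4; adjusted p = 0.00286), at 74.6% of control and an FC of 1.34, just past the threshold. It was not called with normexp, without background correction, with arrays centered on their median, or with limma's test against an FC of 1.3. Its signals, 849 to 1106 in control and 621 to 827 with HMB, did not overlap.

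The pair of skeletal isoforms, *TNNI1* minus *TNNI2*, differed by -0.11 ± 0.15 on the log2 scale with mixed signs (exact p = 0.375), which is within the spread of the arrays. *TNNI3* fell further than *TNNI1* by 0.37 ± 0.18 and further than *TNNI2* by 0.48 ± 0.11, on 4 of 4 arrays in both cases (exact p = 0.125 for each). Neither difference kept its size when background correction and normalization were changed together. *TNNI1* minus *TNNI3* became -0.17 with normexp and loess and -0.03 with loess alone, and *TNNI2* minus *TNNI3* became 0.03 and 0.13.

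**Figure D2:**
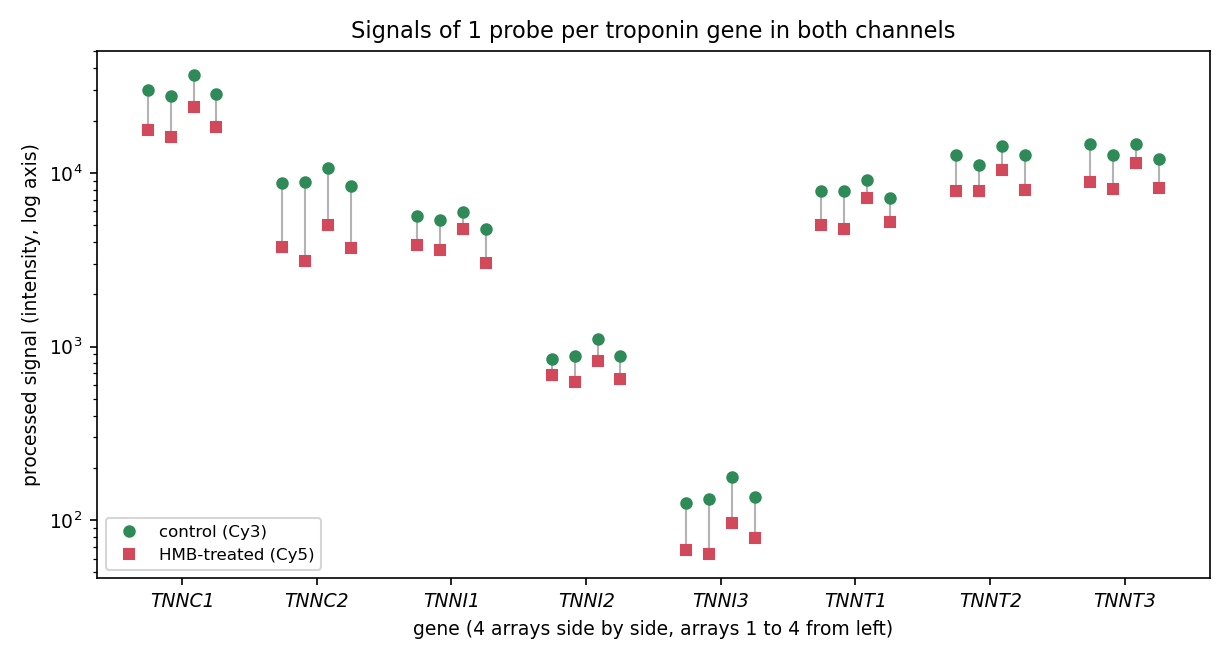
The processed signal (vertical log axis, intensity) of 1 probe for each troponin gene is plotted for control (Cy3, circles) and HMB-treated cells (Cy5, squares), with a line joining the channels of each of the 4 arrays. Each control point lies above the point joined to it, TNNI3 is the dimmest probe with signals from 64.0 to 178, and levels of different probes cannot be compared.

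The troponin T genes had nearly equal ratios. The slow isoform *TNNT1* gave -0.65, -0.72, -0.35 and -0.46 with its brightest probe, a mean of -0.54 ± 0.17 (SD, n = 4; adjusted p = 0.00286) and 68.6% of control. The means of its 5 probes lay between -0.56 and -0.54, and on any 1 array the probes differed by at most 0.06. The signals of this probe touched between the groups, since array 3 gave 7132 with HMB and array 4 gave 7130.04 in control. Within each array the control was the brighter channel.

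The cardiac isoform *TNNT2* gave -0.69, -0.50, -0.47 and -0.69, with a mean of -0.59 ± 0.12 (SD, n = 4; adjusted p = 0.00115) and 66.5% of control. Its 5 probes had means from -0.61 to -0.59 and differed by at most 0.05 on an array. Its signals were 11085 to 14328 in control and 7836 to 10339 with HMB. For the fast isoform *TNNT3* the ratios were -0.73, -0.64, -0.37 and -0.56, with a mean of -0.57 ± 0.15 (SD, n = 4; adjusted p = 0.00191), or 67.2% of control. Its signals of 11995 to 14652 in control and 8106 to 11320 with HMB did not overlap either. The signal ranges thus stayed apart for 7 of the 8 genes, compared with 13% of all tested probes that had every HMB-treated signal below every control signal.

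None of the 3 pairs of troponin T differed beyond the spread between arrays. *TNNT1* minus *TNNT3* was 0.03 ± 0.08 (exact p = 0.5), *TNNT1* minus *TNNT2* was 0.04 ± 0.19 (exact p = 0.625) and *TNNT2* minus *TNNT3* was -0.01 ± 0.12 (exact p = 1). From 4 arrays, such p-values do not show that the isoforms acted alike.

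An additional probe read part of the *TNNT3* site. It carries no gene name, its description is unknown, and it was looked at after its values could be seen. The files place it at chrUn:277452310-277452357 on the minus strand of EquCab1, inside and just beyond one end of the *TNNT3* probe. It is shown because it follows *TNNT3* for the first 47 bases of the *TNNT3* probe and then departs, with capitals for the bases that differ from that probe or lie outside it.
probe without a gene name: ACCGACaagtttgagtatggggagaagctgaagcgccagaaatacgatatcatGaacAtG
Fast troponin T transcripts are known to use alternative exons near the end of the coding sequence, but the files assign no exon to either probe. This probe gave log2 ratios of -0.68, -0.55, -0.32 and -0.52, with a mean of -0.52 ± 0.15 (SD, n = 4; limma's adjusted p = 0.00266). The *TNNT3* probe was lower on 4 of 4 arrays, by a mean of -0.06 ± 0.02 (exact p = 0.125, the smallest possible). Among all other probes it was the 1 probe that shared 20 bases or more with a troponin probe.

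By fiber type, the median of the means was -0.54 for the slow genes (*TNNC1*, *TNNI1* and *TNNT1*), -0.57 for the fast genes (*TNNC2*, *TNNI2* and *TNNT3*) and -0.75 for the cardiac genes (*TNNI3* and *TNNT2*). With normexp these medians were -0.53, -0.61 and -0.47, so the order turned, and the cardiac median rests on *TNNI3*. The fast genes held both ends of the range, *TNNC2* and *TNNI2*. In the order of change, *TNNC2* was the lowest of the 8 genes on 4 of 4 arrays and *TNNI3* the second on 4 of 4. *TNNI3* lay above *TNNC2* by 0.35 ± 0.11 and below *TNNC1* by 0.20 ± 0.07, each with the same sign on 4 arrays (exact p = 0.125 for both). From *TNNC1* to *TNNI2* neighbors in this order, with *TNNT2*, *TNNT3*, *TNNT1* and *TNNI1* between them, differed by 0.01 to 0.11, less than the SD of each such difference, and changed places between arrays. *TNNC2* stayed first under each way of correcting or scaling the arrays. *TNNI3* dropped to place 7 with normexp and without background correction, where *TNNC1* minus *TNNI3* turned to -0.41 and -0.30.

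Each troponin I gene lies beside a troponin T gene, so the changes were also read by locus. On EquCab1 the probes of *TNNI1* and *TNNT2* are 45.2 kb apart on chromosome 30, those of *TNNI2* and *TNNT3* 46.3 kb apart on unplaced sequence, and those of *TNNI3* and *TNNT1* 13.8 kb apart on chromosome 10. In the RefSeq genes of the horse assembly TB-T2T, *TNNI3* and *TNNT1* are direct neighbors, whereas *LAD1* and an unnamed locus lie between *TNNI1* and *TNNT2*, and *LSP1* and *PRR33* between *TNNI2* and *TNNT3*. The ratios of *TNNI1* and *TNNT2* differed by 0.06 ± 0.10 (exact p = 0.375) and those of *TNNI2* and *TNNT3* by 0.15 ± 0.19 (exact p = 0.25). *TNNI3*, the closest pair's cardiac gene, lay below *TNNT1* by -0.36 ± 0.12 on 4 of 4 arrays (exact p = 0.125). This difference became 0.19 with normexp and 0.05 without background correction.

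**Figure D3:**
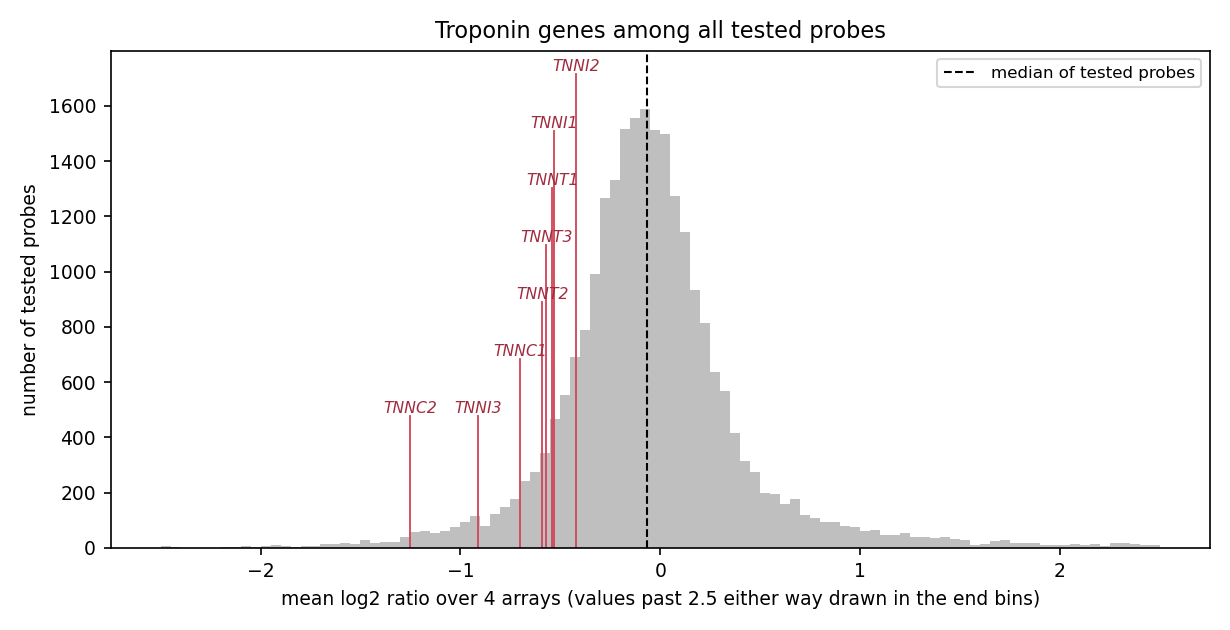
The histogram shows the number of tested probes (vertical axis) by their mean log2 ratio over 4 arrays (horizontal axis), with a dashed line at the median of -0.07 and red lines at the 8 troponin genes. All 8 lie left of the median, from -1.25 for TNNC2 to -0.42 for TNNI2.

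Counted from the largest fall, the 8 genes lay between percentiles 1 and 14.3 of the tested probes, for which the 5th percentile was -0.72 and the 10th was -0.52. The median ratio of the 8 genes was -0.71, -0.68, -0.45 and -0.65 on arrays 1 to 4. Array 3 showed the weakest fall, and the same array was the weakest for *TNNC1*, *TNNC2*, *TNNI1*, *TNNT1*, *TNNT2* and *TNNT3* but not for *TNNI2* or *TNNI3*. Of 8395 other gene symbols, those whose 4 ratios lay nearest to this profile were *KLHL24* (-0.64, -0.69, -0.45 and -0.63) and *KIAA1324* (-0.78, -0.67, -0.41 and -0.62), at a root mean square difference of 0.036 and 0.042 over the 4 arrays. The nearest troponin gene itself was at 0.063 and 5 other symbols were as near, while 4855 were nearer than the farthest, *TNNC2*, at 0.643.

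The genes of the thin filament around troponin were next compared. Of 18 genes listed, 13 were tested, and 6 fell, 0 rose and 7 were not called, with a median of -0.30. Counts of this list and of those that follow stand beside 16.4% of all tested probes called lower and 12.1% called higher. *LMOD3* and *LMOD2*, leiomodins that help actin filaments to grow, fell to 36.9% and 41.6% of control (log2 ratio -1.44 ± 0.17 and -1.27 ± 0.22, SD, n = 4; adjusted p = 6.22e-05 and 0.000177), although *LMOD2* was at -0.84 with normexp. *NEB*, or nebulin, which runs along the thin filament, fell to 44.3% (-1.17 ± 0.16; adjusted p = 0.000116). The tropomyosins, to which troponin T binds, were not called by their brightest probe. *TPM1* was at -0.16 ± 0.35, *TPM2* at -0.03 ± 0.31 and *TPM3* at 0.17 ± 0.15. Of their other probes, 2 of 8 of *TPM3* were called, in a direction not reported here, and 0 of 3 of *TPM1*. The paper lists *TPM1* and *TPM3* as lower with HMB in its table of pathways, without naming the probes there. The brightest probe thus does not settle the change of these genes.

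Most tested genes of the slow and fast fiber lists were lower with HMB. In the slow fiber list, 9 of 13 genes were tested, 8 fell and 1 was not called, with a median of -0.82, or -0.74 with *PLN* at its bound. Where both channels had to be well above background, 6 were called lower. The 1 of 8 probes of *PLN*, the regulator of the cardiac and slow calcium pump, that was tested was not well above background with HMB on any array. As deposited, it was at least 1.63-fold lower, with a limma call that was lost with normexp (-0.24). Such bounds set the control mean against the dimmest signal that was well above background in the Cy5 channel, and their dye bias was not tested. They hold only for the deposited signals, since normexp and loess without background correction gave smaller changes. *MYH7*, the slow myosin heavy chain, was at -1.25 ± 0.20 (42% of control) and *MYOZ2*, a Z-disc protein of slow fibers, at -1.07 ± 0.10 (47.5%). In the fast fiber list, 7 of 13 were tested, 5 fell, 1 rose and 1 was not called, with a median of -0.70, or -0.61 with *MYH2* at its bound. The filter on both channels left 4 called lower. *MYH2*, a fast myosin heavy chain, had 1 of 8 probes tested, which was not well above background with HMB on any array. As deposited, it was at least 1.53-fold lower, and its call was lost with normexp (-0.34). *ACTN3*, the fast fiber α-actinin, was at -1.28 ± 0.26 (41.2%). *MYOZ3*, the Z-disc protein of fast fibers, rose to 233% of control (1.22 ± 0.20, and 0.70 with normexp). *MYH1*, *MYH4* and *PVALB* did not pass the filter.

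In the list of developmental and cardiac sarcomere genes, 5 of 9 were tested, 3 fell and 2 were not called, with a median of -0.48. The perinatal and embryonic myosin heavy chains *MYH8* and *MYH3* were at -1.67 ± 0.66 (-0.95 with normexp) and -1.38 ± 0.33, and *MYL4*, the embryonic and atrial light chain, at -0.48 ± 0.14. Of the genes that supply calcium to troponin C, 8 of 15 were tested, 5 fell, 1 rose and 2 were not called, with a median of -0.60, or -0.53 with *TRDN* and *CACNG1* at their bounds. The filter on both channels left 3 called lower. *TRDN*, or triadin of the calcium release unit, and *CACNG1*, a subunit of the muscle calcium channel, were not well above background with HMB on any array. As deposited, they were at least 1.84-fold and 1.48-fold lower, and both calls were lost with normexp (-0.33 and -0.24). *ORAI1*, the store-operated calcium channel of the surface membrane, rose to 321% (1.68 ± 0.17).

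Of the transcription factors known to act on muscle genes such as troponin, 18 of 29 were tested. Among these 18, 5 fell, 2 rose and 11 were not called, with a median of -0.14. The filter on both channels left 3 called lower. These counts stand beside 28.6% of all tested probes called and 16.4% called lower, and are not read as a result about the list. *MYF5* and *MYF6*, myogenic factors, differed in how well they were measured. *MYF5* was at -1.49 ± 0.34, and at -0.71 with normexp. *MYF6* was not well above background with HMB on any array and was at least 1.18-fold lower as deposited. *EYA1*, a transcriptional coactivator, was at -1.47 ± 0.47, with 1 of 4 arrays well above background with HMB. The calls of *MYF6* and *EYA1* were lost with normexp (-0.15 and -0.22) and without background correction (-0.22 and -0.35). The factors *MYOG* and *MYOD1* were at 0.03 ± 0.22 and 0.32 ± 0.25 and *MEF2C* at -0.15 ± 0.21, none of them called. The list of enzymes that phosphorylate, dephosphorylate or degrade troponin also held *CAST*, which encodes an inhibitor of calpains. Of its 18 genes, 15 were tested, 4 fell, 1 rose and 10 were not called, with a median of 0.01. These 5 calls among 15 genes stand beside the 28.6% of all tested probes, and with normexp 1 of the falls was called. *TRIM63*, a ubiquitin ligase of the sarcomere, was at -1.16 ± 0.16 (44.6% of control), *PRKACB*, a catalytic subunit of protein kinase A, at -0.74 ± 0.14, and *PRKCD*, protein kinase C delta, at 1.05 ± 0.22 (207%). With normexp *TRIM63* was at -0.48, and *PRKACB* (-0.30) and *PRKCD* (0.34) were no longer called. All genes named with a value here passed the call unless it is said that they did not, with limma's adjusted p between 2.95e-05 and 0.0032.

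**Figure D4:**
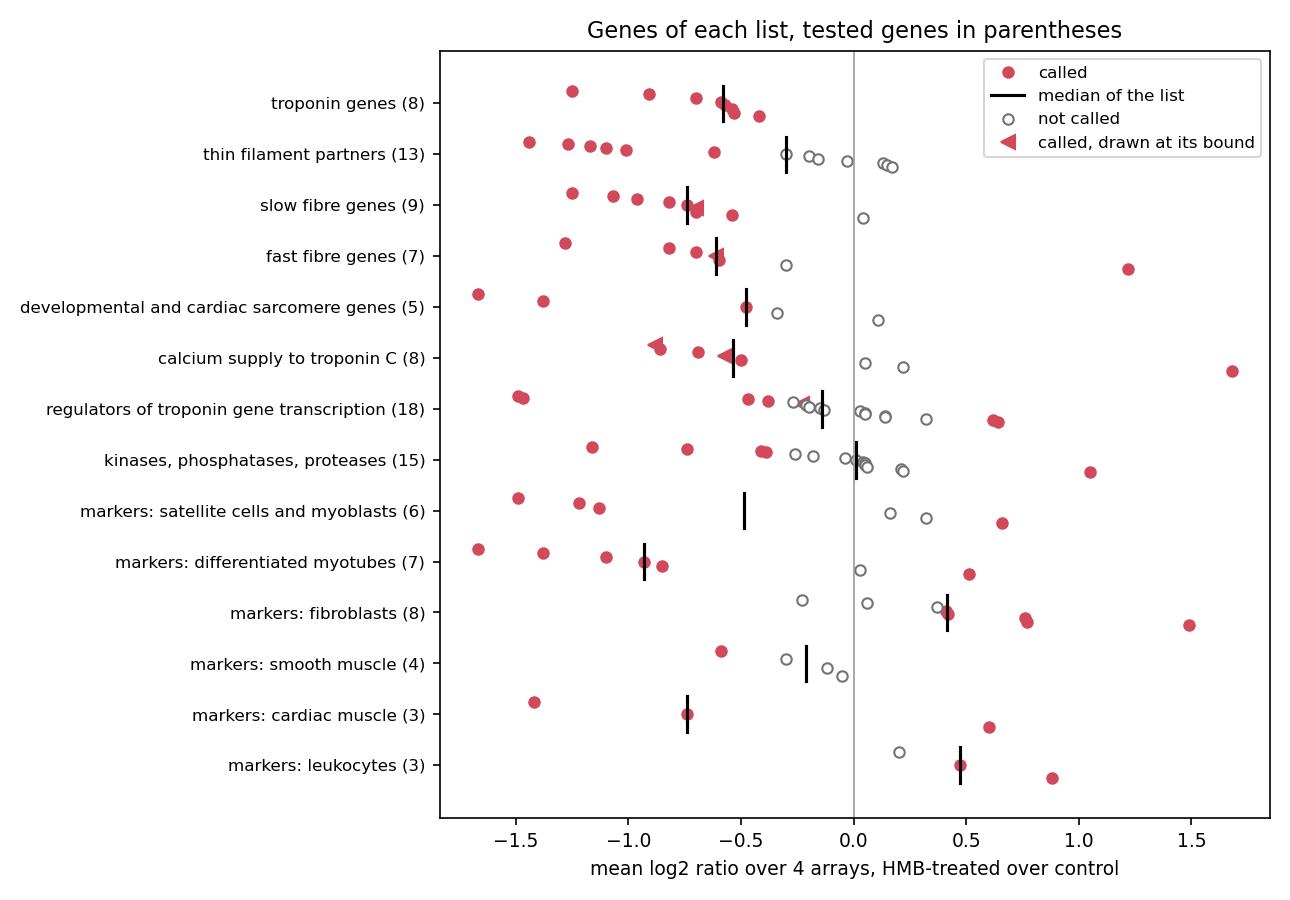
The mean log2 ratio over 4 arrays (horizontal axis) is plotted for each tested gene of the troponin group, of 7 pathway lists and of 6 marker lists with tested genes (rows, number tested in parentheses), with filled circles for called genes, triangles for called genes drawn at their bound, open points for genes not called and a bar at the median of the drawn values. The 8 troponin points are all filled and lie between -1.25 and -0.42, whereas the list of enzymes acting on troponin has a median of 0.01.

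Markers of other cell types were detected as well. Counts of marker calls stand beside 12.1% of all tested probes called higher and 16.4% called lower. Of the fibroblast markers, 8 of 10 were tested and 5 were called higher with HMB and 0 lower, with a median of 0.42. *PDGFRA* was the highest at 1.49 ± 0.26. *COL1A2* (-0.23 ± 0.34), *COL3A1* (0.06 ± 0.29) and *POSTN* (0.37 ± 0.99) were not called by their brightest probe. Of the 7 probes of *COL3A1*, 3 were called, in a direction not reported here. The summed signal of the tested fibroblast markers was 417000 to 507300 in control and 409600 to 639900 with HMB. *TCF21* did not pass the filter and *COL1A1* had no probe. With arrays scaled to the spike-in RNA, 3 of the 5 fibroblast markers called higher as deposited were above 0, and 1 fibroblast marker was called higher. Of the markers of differentiated myotubes, 7 of 12 were tested, 5 were called lower and 1 higher, with a median of -0.93. Their summed signal was 156300 to 172700 in control and 60870 to 95730 with HMB. Such sums are weighted to the brightest probes, here that of *MYH3*. *MYH3*, *MYH8*, *ACTA1* and *MYOG* also stand in the pathway lists above, so this list is not separate from them. The part of these marker shifts in the troponin ratios was not tested.

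Of the satellite cell and myoblast markers, 6 of 11 were tested, 3 were called lower and 1 higher. *PAX7*, *CDH15* and *ITGA7* had no probe, and *PAX3* and *CXCR4* did not pass the filter. The markers called lower were *MYF5* (-1.49), *DES* (-1.22) and *NCAM1* (-1.13), and *SDC4* (0.66) was called higher. *MYOD1* (0.32) and *MSTN* (0.16) were not called. These 6 tested markers were well above background in both channels, and the labeled cell type was not checked further. Of the cardiac markers, *NPPA* and *NPPB* were called lower and *HAND2* higher, with a summed signal of at most 239 in control, while *TBX5*, *GATA4* and *MYBPC3* were not tested and *MYH6* and *NKX2-5* had no probe. Of the smooth muscle markers, 4 of 6 were tested and 1 was called lower. Of the leukocyte markers, 3 of 8 were tested and 2 were called higher, at a summed signal of 4253 to 5142 in control and 5013 to 7187 with HMB. The endothelial and adipocyte markers with a probe did not pass the filter, 5 of each.

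**Figure D5:**
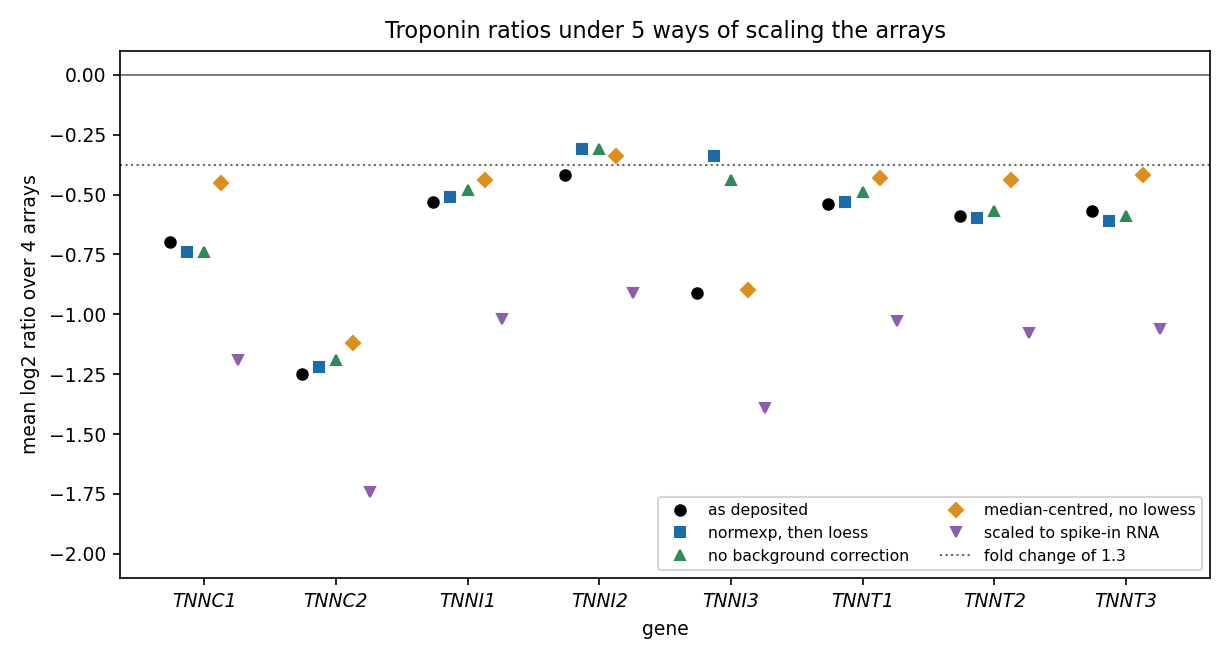
The mean log2 ratio over 4 arrays (vertical axis) is plotted for each troponin gene (horizontal axis) as deposited and under 4 other ways of correcting or scaling the signals, with a dotted line at an FC of 1.3. All values are below 0, those scaled to the spike-in RNA lie lowest, and TNNI3 moves from -0.91 to -0.34 with normexp.

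The direction of all 8 genes was the same under every way of correcting or scaling the arrays that was tried. Asked for an FC beyond 1.3 by limma's treat test, 3 of 8 genes were called, namely *TNNC1*, *TNNC2* and *TNNI3*, compared with 11.4% of all tested probes (5.19% as lower). Scaling to the spike-in RNA shifted the median of all tested probes from -0.07 to -0.56 and that of the troponin genes to -1.07. Relative to the median of all tested probes, the troponin genes lay at -0.51 as deposited, at -0.51 with spike-in scaling, at -0.44 with arrays centered on their median and at -0.55 with normexp.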

How the data were processed

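RNA of HMB-treated and control ESC was hybridized together on 4 two-color arrays of 1 slide, and each array counted as 1 replicate. The authors' scanner files hold the intensity of each spot in both channels, background-subtracted and normalized within the array (linear and lowess, per the methods). The deposited log10 ratio is normalized Cy5 over Cy3. The scanner headers give 10.10.1.1 as the version of the grid placement step, whereas the methods state another version of the Feature Extraction software. The authors' table of normalized values matched these log10 ratios to within 2.67e-16, with a median of 0 on each array over all 43603 probes. A change of base gave the log2 values used here. No per-sample column was left unused.

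Ratios were tested with limma 3.58.1 in R 4.3.3 (lmFit with an intercept and eBayes) against 0, with Benjamini-Hochberg adjustment over 24669 tested probes. Control spots and 13 to 35 marked spots per array were left out. Testing required 1 channel (Cy3 or Cy5) that exceeded background clearly on each of the 4 arrays, with ratios from 3 arrays or more. Calls were made at an adjusted p up to 0.05 and an FC from 1.3. Where a gene had several probes, the brightest tested probe was used. Differences between genes were tested with exact two-sided sign-flip permutation tests over arrays. The number of arrays limits the precision. Probes were named by the files (27648), by accession through RefSeq of the assembly TB-T2T (479), or, for troponin, by description (11). No gene name was at hand for 15465.

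The members, the gene lists and the tests were chosen with earlier results of these data known. The genes named are all 8 members, up to 3 called genes with the largest change in each pathway list, any list gene that a sentence on a member turns on, and the 3 other symbols nearest to the median troponin profile, of which 1 is not reported here. Marker genes are named only to describe their list. Simulated ratios for 24669 probes with 200 changed gave 8% recovery at a log2 change of 0.4, 50% at 0.55, 70% at 0.9 and 96% at 1.25, with 2 false calls. In the data 28.6% of the tested probes were called, a far larger share than was changed in the simulation. The adjusted p depends on that share, so these rates do not carry over to the data. Where a channel was not well above background on any array, the change is given as a bound for the deposited signals. The alternatives were other tests (the methods' t-test with Benjamini-Hochberg, limma treat, trend and robust moderation), background corrections (normexp with an offset of 50, none), scalings, filters and leaving out each replicate. Protein and promoter sequences were not used here.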

Additional observations from a re-analysis of the deposited data

Results flagged for a closer look

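Of 51 sets of 4 ratios examined, 1 held an array that lay far from the other arrays by Dixon's criterion for the gap over the range, and chance alone flags about 1 set in 20. It was not a troponin gene. *PRKCD*, a kinase, gave log2 ratios of 1.14, 1.18 and 1.16 on arrays 1 to 3 and 0.73 on array 4, with a gap over range of 0.927.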

How the results depend on the processing

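All 8 troponin genes stayed below 0 under each of the 17 alternatives run on them. The filter on both channels left out *TRDN*, *CACNG1*, *MYH2*, *EYA1*, *MYF6* and *PLN*. Of the 5 probes found by gene name, 3 were called with limma's test against an FC of 1.3 (as were 3 of all 16) and 3 with normexp, and adding the probes named by description gave 16. With the mean over the probes of a gene, 8 of 8 genes were called. The number of called tested probes was 2822 with limma's test against an FC of 1.3, 3539 with normexp, 4440 without background correction and 18570 with spike-in scaling, and 6637 to 7151 when a replicate was left out. The median of the 5 genes was -0.61 with normexp, -0.59 without background correction, -0.45 with median centering and -1.19 with spike-in scaling, and that of the 8 genes was -0.44 and -1.07 in the last pair. *TNNI1* minus *TNNI3* was -0.17 with normexp and -0.03 without background correction, *TNNI2* minus *TNNI3* 0.03 and 0.13, and *TNNI3* minus *TNNT1* 0.19 and 0.05. The cause was not tested.

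Lower calls among the transcription factors numbered 3 with the methods' t-test, 3 with limma's test against an FC, 1 with normexp, 1 without background correction, 13 with spike-in scaling and 3 with both channels above background. Those in the list of enzymes acting on troponin numbered 2 with limma's test against an FC, 1 with normexp, 2 without background correction and 12 with spike-in scaling. Those of calcium supply numbered 1 with normexp, 3 without background correction and 3 with both channels above background. Normexp left 5 slow and 3 fast fiber genes, and spike-in scaling gave 10 thin filament partners and 5 developmental genes. Fibroblast markers called higher numbered 3 with limma's test against an FC and 1 with spike-in scaling.

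Leaving out a replicate kept the median of the 5 genes at -0.73 to -0.67, that of the 8 at -0.63 to -0.54, and all 8 genes called. *TNNC1* minus *TNNC2* ranged from 0.49 to 0.58. The test of the ratios is itself paired by array. No paired analysis was possible because of any other shared number, since the control carries 1 replicate number throughout. A dye effect could not be separated from HMB, and the dim *TNNI3* probe limits what can be said of its size.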
